A study of Mus musculus with 7 samples.

Results

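The MS4A family encodes small membrane proteins, membrane-spanning 4-domain subfamily A, and 6 of its mouse genes are described here: Ms4a4b, Ms4a4c, Ms4a6b, Ms4a6c, Ms4a6d and Ms4a7. They were taken by gene symbol from a table of 55401 genes counted in 7 RNA-seq libraries, and all 6 were found. The libraries were made from CD11b-enriched microglia of the dorsal hippocampus of C57BL/6 mice aged 6 to 8 weeks, described as male. AAV-RAM-Cre, in which an activity-dependent promoter drives Cre, was injected into the dorsal dentate gyrus of all mice, controls included. In the 4 control libraries, EYFP 1 to 4, the Cre-dependent virus was AAV-Dio-EYFP. In the 3 others, ATG7 1 to 3, it was AAV-Dio-Atg7-Flag. This virus is meant to overexpress the autophagy gene Atg7 in the memory engram cells of the dentate gyrus. The sequenced cells are the CD11b-enriched microglial fraction. The comparison asks how MS4A transcripts of the microglial fraction differ between these groups. The labels do not say whether a library is 1 mouse or a pool, so p-values measure the spread between these libraries.

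The best known relatives of these genes are CD20 of B cells, encoded by Ms4a1, and the beta chain of the high-affinity IgE receptor of mast cells, encoded by Ms4a2. Both sit in the membrane beside signalling receptors and modulate what those receptors transmit. In the brain, Ms4a6b, Ms4a6c and Ms4a6d are expressed by microglia and other macrophages. Ms4a7 is used as a marker of macrophages at the borders of the brain, and Ms4a4b is known from T cells, where it modulates activation. In humans the gene cluster has been linked to the amount of soluble TREM2, a microglial receptor.

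All 6 genes lie on chromosome 19 (GRCm38) within a cluster of 19 Ms4a-named genes between positions 10962293 and 11640851. In order along the chromosome they are Ms4a7 (ENSMUSG00000024672, 11321039 to 11336146, minus strand), Ms4a4c (ENSMUSG00000024675, 11404770 to 11427246, plus strand) and Ms4a4b (ENSMUSG00000056290, 11443553 to 11467055, plus strand). Then follow Ms4a6c (ENSMUSG00000079419, 11469366 to 11482192, plus strand), Ms4a6b (ENSMUSG00000024677, 11516512 to 11531256, plus strand) and Ms4a6d (ENSMUSG00000024679, 11586604 to 11604849, minus strand).

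Of the 6 genes, 4 form 2 pairs whose upstream sequences resemble each other. The 250 bases before the RefSeq start (GRCm38.p6, plus strand, 5′ to 3′) are shown for the pairs Ms4a4b with Ms4a4c and Ms4a6b with Ms4a6c. The first pair holds the largest differences between the groups, and the second is the other such pair among the members with a window. Ms4a genes outside the 6 were not compared. Capitals mark the longest run of bases that a gene shares with its partner. The windows are chr19:11443308-11443557 for Ms4a4b, chr19:11407411-11407660 for Ms4a4c, chr19:11518309-11518558 for Ms4a6b and chr19:11469118-11469367 for Ms4a6c. Those of Ms4a4c and Ms4a6b lie inside the gene spans given above, whose first base is further upstream than the RefSeq start. For these genes the window precedes the RefSeq start and not the whole annotated gene.
Ms4a4b: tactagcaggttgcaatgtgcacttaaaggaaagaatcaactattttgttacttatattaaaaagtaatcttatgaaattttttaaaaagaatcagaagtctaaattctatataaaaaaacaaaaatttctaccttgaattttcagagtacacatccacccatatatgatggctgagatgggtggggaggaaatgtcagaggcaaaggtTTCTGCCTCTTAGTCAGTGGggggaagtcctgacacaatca
Ms4a4c: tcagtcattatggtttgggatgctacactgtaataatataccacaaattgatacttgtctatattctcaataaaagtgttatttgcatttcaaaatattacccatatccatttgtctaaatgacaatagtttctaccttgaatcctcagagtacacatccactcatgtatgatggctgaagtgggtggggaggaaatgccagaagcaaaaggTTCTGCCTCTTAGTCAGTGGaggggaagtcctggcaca
Ms4a6b: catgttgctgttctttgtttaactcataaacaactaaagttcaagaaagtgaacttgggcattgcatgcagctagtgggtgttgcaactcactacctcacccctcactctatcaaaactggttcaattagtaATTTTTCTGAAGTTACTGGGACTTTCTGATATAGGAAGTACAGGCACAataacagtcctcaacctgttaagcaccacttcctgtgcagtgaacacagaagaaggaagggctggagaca
Ms4a6c: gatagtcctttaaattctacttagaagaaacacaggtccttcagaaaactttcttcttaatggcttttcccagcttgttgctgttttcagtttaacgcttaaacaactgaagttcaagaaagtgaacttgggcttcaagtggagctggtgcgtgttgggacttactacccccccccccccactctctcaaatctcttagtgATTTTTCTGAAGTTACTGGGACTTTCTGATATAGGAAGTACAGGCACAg
In the alignment of Ms4a4b with Ms4a4c, 183 of 232 aligned bases were identical (78.9%), and the longest shared run was 20 bases. In that of Ms4a6b with Ms4a6c, 149 of 175 aligned bases were identical (85.1%), with a shared run of 48 bases. That run ends 2 bases before the RefSeq start of Ms4a6c and 71 bases before that of Ms4a6b, so the annotated starts are offset between the copies.

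Motifs were searched on both strands of these windows and of 32851 windows of the same length in the RefSeq table, which holds 5 of the 6 genes and has none for Ms4a6d. The motifs were GAAANNGAA (a pair of binding sites for interferon regulatory factors), the interferon-stimulated response element (the same letters followed by a further A), TTCNNNGAA (the site of STAT dimers) and AGGAAG (a core of the ETS factors, to which the macrophage factor PU.1 belongs). They were chosen with the sequences in view. Neither Ms4a4b nor Ms4a4c held any of the 4. Ms4a6b and Ms4a6c each held GAAAGTGAA, from 206 to 198 bases before the start in Ms4a6b and from 133 to 125 in Ms4a6c, and GAAANNGAA occurs in 7.13% of all windows. Ms4a7, with 2 windows for 2 starts, held GAAAAGGAA in one, which lies inside its gene span, and GAAAACGAA on the reverse strand of the other. AGGAAG, found in 29.5% of all windows, lay inside the shared run of both genes. The response element, at 2.98% of all windows, and TTCNNNGAA, at 7.02%, were in no window of the 5 genes. A match or its absence describes letters of these windows and not a binding site.

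Total counts per library ranged from 35934210 to 55217119, so the members' counts, from 31 for Ms4a4b in EYFP 3 to 4663 for Ms4a6b in ATG7 2, carry very different counting errors. Levels are given as CPM, the share of a library's counts per 1e6 after scaling of library totals by TMM factors. The microglial markers P2ry12 and Tmem119 were at 2330 to 3498 and at 1558 to 2212 CPM. The 16 homeostatic microglia genes listed summed to 30019 to 36926 CPM in EYFP and 29695 to 36084 CPM in ATG7. In every library 10 choroid plexus genes summed to more, 55549 to 73270 CPM in EYFP and 47092 to 61954 CPM in ATG7. The levels are therefore those of a mixed fraction. EYFP 3 stood apart in its sex-linked genes. Xist was at 938.5 CPM there against 0.151 to 0.574 in the other 6 libraries, and Ddx3y at 27.6 CPM against 121.1 to 168.7. The high Xist of this control library does not match the description of the mice as male, and its source was not tested. The members, and the counts of listed genes that passed where they change, are therefore also given without EYFP 3. In bulk libraries of this kind, more cells of a type and more RNA per cell cannot be told apart.

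Ms4a6d, Ms4a6b and Ms4a6c were the most abundant members per length of annotated exon (CPM per kilobase). Ms4a6d stood at 30.3 ± 3.90 (SD, n = 4) CPM per kilobase in EYFP and 33.3 ± 3.02 (SD, n = 3) in ATG7. Ms4a6b followed with 18.1 ± 1.34 (SD, n = 4) and 18.4 ± 1.04 (SD, n = 3) CPM per kilobase, then Ms4a6c with 10.4 ± 1.15 (SD, n = 4) and 12.8 ± 1.02 (SD, n = 3). The ranges of these 3 genes did not touch in either group, and the order was the same in all 7 libraries. Ms4a7 and Ms4a4c came next and changed places between the groups. In EYFP, Ms4a7 had 4.16 ± 0.689 (SD, n = 4) CPM per kilobase and Ms4a4c 3.60 ± 1.22 (SD, n = 4), with Ms4a7 higher in 4 of 4 libraries but overlapping ranges. In ATG7, Ms4a7 had 4.37 ± 0.414 (SD, n = 3) and Ms4a4c 9.74 ± 3.01 (SD, n = 3), and Ms4a4c was higher in 3 of 3 libraries. There the range of Ms4a4c, 6.38 to 12.2, overlapped that of Ms4a6c, 11.7 to 13.6. Ms4a4b was the lowest member, at 0.163 ± 0.0589 (SD, n = 4) and 0.526 ± 0.273 (SD, n = 3) CPM per kilobase.

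The lower part of this order depends on the length used. With the longest coding transcript instead, chosen after seeing the data, Ms4a7 in EYFP came to 11.8 CPM per kilobase and lay beside Ms4a6c at 11.6, and in ATG7 it lay above Ms4a4c, at 12.4 against 9.89. The annotated exons of Ms4a4b sum to 8780 bases, against 4750 in its longest coding transcript, and those of Ms4a7 to 4453 against 1576.

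**Figure D1:**
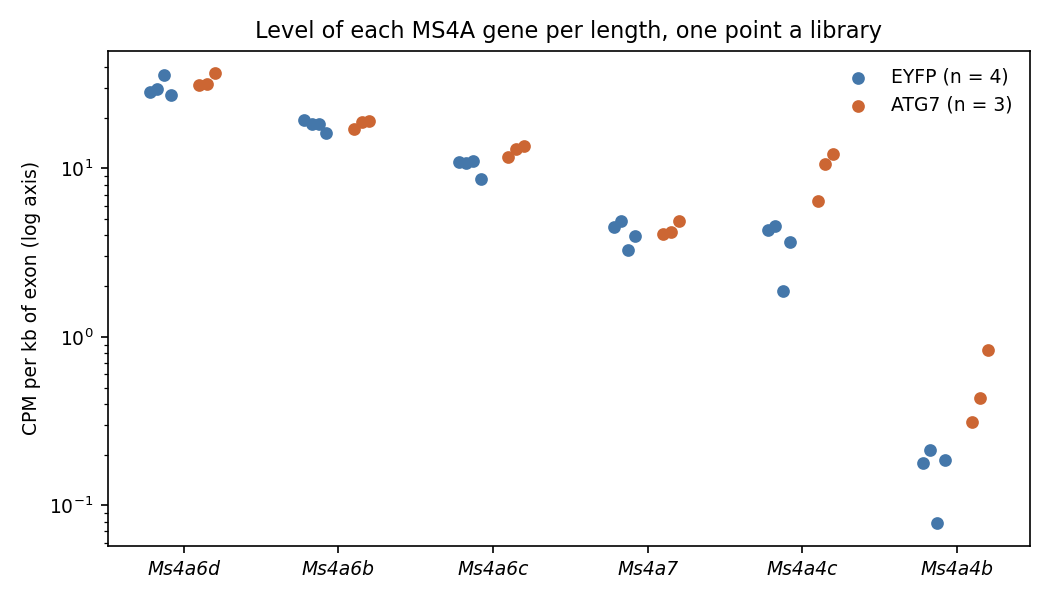
CPM per kilobase of annotated exon (log axis) for the 6 MS4A genes, with 1 point for each of 4 EYFP and 3 ATG7 libraries. The points of Ms4a6d, Ms4a6b and Ms4a6c stay apart from each other, while Ms4a4c lies beside Ms4a7 in EYFP and above it in ATG7.

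Ms4a4b had the largest ratio between the groups of the 6 genes. It was at 1.56, 1.88, 0.687 and 1.62 CPM in EYFP 1 to 4 and at 2.72, 3.82 and 7.31 CPM in ATG7 1 to 3. Every ATG7 library lay above every EYFP library, EYFP 3 was the lowest of the 7 and ATG7 3 the highest. The means were 1.43 ± 0.517 (SD, n = 4) and 4.62 ± 2.40 (SD, n = 3) CPM, a ratio of 3.22. In edgeR's quasi-likelihood test the difference on the log2 scale came to 1.69 ± 0.381 (SE; unadjusted p = 0.00124, adjusted p = 0.0923), so Ms4a4b did not pass the threshold of 0.05.

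Ms4a4c, its neighbour in the cluster, had a nearly identical order of libraries. It was at 7.57, 7.98, 3.26 and 6.38 CPM in EYFP 1 to 4 and at 11.2, 18.6 and 21.4 CPM in ATG7 1 to 3. The groups again did not overlap, with EYFP 3 lowest and ATG7 3 highest. The means were 6.30 ± 2.14 (SD, n = 4) and 17.0 ± 5.28 (SD, n = 3) CPM, a ratio of 2.71. The estimate was 1.44 ± 0.314 (SE) on the log2 scale (edgeR adjusted p = 0.106), which missed the threshold. Without EYFP 3 the log2 fold change of Ms4a4c was 1.22 and passed (edgeR adjusted p = 0.0344), and that of Ms4a4b was 1.45 and did not (edgeR adjusted p = 0.107). With the Wald test of DESeq2 on all 7 libraries both genes passed, at an adjusted p of 0.000543 for Ms4a4b and 0.0143 for Ms4a4c. With limma-voom and quality weights neither passed (limma adjusted p = 0.117 for Ms4a4b and 0.0921 for Ms4a4c).

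Ms4a6c was the third gene whose groups did not overlap, with a much smaller difference. It was at 22.3, 22.2, 22.8 and 17.8 CPM in EYFP 1 to 4 and at 23.9, 26.8 and 27.9 CPM in ATG7 1 to 3. Of the EYFP libraries, EYFP 4 was the low one, and the gap between EYFP 3 and ATG7 1 was narrow. The ratio of means was 1.23, or 0.30 ± 0.103 (SE) on the log2 scale (edgeR unadjusted p = 0.0140, adjusted p = 0.267). Its counts are uncertain, because BE692007, a gene on the opposite strand, overlaps it over 12027 bases and the strand setting of the counting is not given in the sources used here. BE692007 itself was at 5.89 to 7.81 CPM in EYFP and 7.27 to 7.66 CPM in ATG7.

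Ms4a6b, the member with the most counts, was nearly level. It was at 86.9, 82.4, 82.4 and 72.6 CPM in EYFP 1 to 4 and at 77.2, 84.9 and 85.7 CPM in ATG7 1 to 3. The ATG7 values lay inside the EYFP range. The log2 fold change was 0.03 with a 95% interval from -0.14 to 0.20 (edgeR adjusted p = 0.933), which does not reach the sizes estimated for Ms4a4b and Ms4a4c.

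Ms4a6d was at 49.1, 51.2, 62.4 and 47.5 CPM in EYFP 1 to 4 and at 54.1, 55.3 and 63.7 CPM in ATG7 1 to 3. EYFP 3 was the highest EYFP library here, the reverse of its place for Ms4a4b and Ms4a4c, and was what made the groups overlap. The log2 fold change was 0.14 with a 95% interval from -0.09 to 0.36 (edgeR adjusted p = 0.667), and 0.22 without EYFP 3 (edgeR adjusted p = 0.322).

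Ms4a7, the border macrophage marker, was at 20.02, 21.7, 14.6 and 17.7 CPM in EYFP 1 to 4 and at 18.2, 18.6 and 21.6 CPM in ATG7 1 to 3. The ATG7 values lay within the EYFP range, and EYFP 3 was the lowest library. The log2 fold change was 0.07 with a 95% interval from -0.21 to 0.36 (edgeR adjusted p = 0.885), and its sign turned to -0.03 without EYFP 3 (edgeR adjusted p = 0.946).

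**Figure D2:**
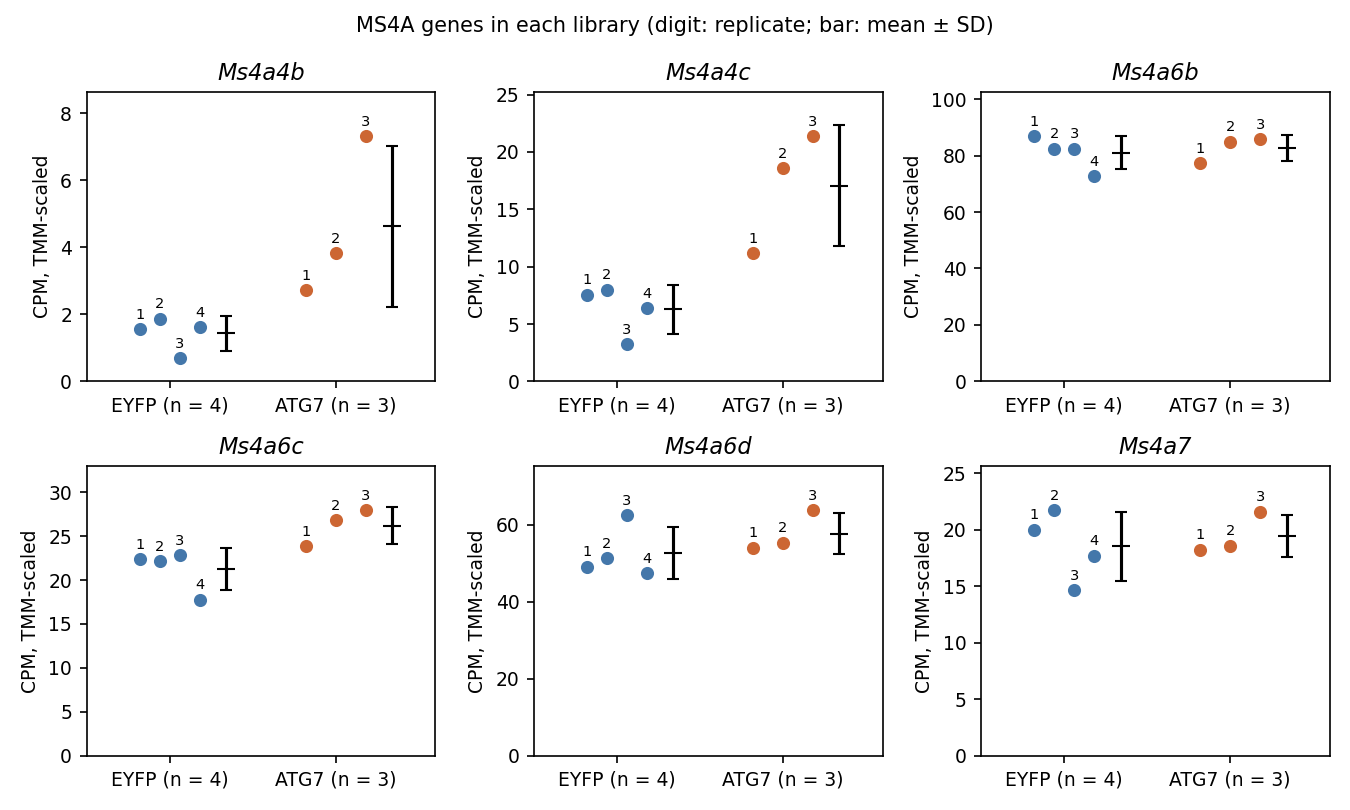
CPM of each MS4A gene (vertical axis, from 0) in every library, with the replicate number above each point and the group mean ± SD beside it, n = 4 for EYFP and n = 3 for ATG7. For Ms4a4b, Ms4a4c and Ms4a6c all ATG7 points lie above all EYFP points, and for the other 3 genes the groups overlap.

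Across the table, 145 of 19199 genes tested had an edgeR adjusted p under 0.05, or 0.755% (0.688% higher in ATG7), and 0 of the 6 members were among them. At an unadjusted p under 0.05 there were 3 members, all higher in ATG7, against 6.27% of all genes tested in that direction. By DESeq2 2 members passed, both higher, against 3.26% of genes (2.30% higher). Without EYFP 3, 1 member passed in edgeR, against 0.871% of genes (0.749% higher). The groups did not overlap, with ATG7 higher, in 3 of the 6 members, and in 6.33% of all genes tested in that direction (11.2% in either). Without EYFP 3 it was 4 members, with Ms4a6d added, against 8.55% of the genes tested then. The 6 members were chosen with earlier results of these data known, and Ms4a4a, at a log2 fold change of -0.37, is not among them. Ms4a4b and Ms4a4c also varied together (r = 0.977 over the 7 libraries). The counts beside the shares thus describe these 6 genes and are no test of the family. All 6 members passed the filter on low counts and had a log2 fold change above 0, as 49.2% of all genes tested did. The members' median was 0.22, beside -0.0037 over all genes tested. Without EYFP 3 the fold change was above 0 in 5 of the 6. The values of Ms4a6b and Ms4a7 lay close to 0 and changed sign in 3 and 2 of 14 other settings.

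The make-up of the summed CPM of these 6 genes differed accordingly. The shares are not scaled for gene length, and family genes outside the 6 are left out. Of the CPM summed over the 6 genes, Ms4a4c took 1.75% to 4.26% in EYFP and 5.96% to 9.39% in ATG7. The share of Ms4a4b was 0.369% to 1.00% in EYFP and 1.45% to 3.21% in ATG7. Ms4a6b took 44.0% to 46.3% in EYFP and 37.6% to 41.2% in ATG7, although its level was nearly the same. The sum itself was 181.2 ± 11.7 (SD, n = 4) CPM for EYFP against 207.7 ± 20.2 (SD, n = 3) CPM for ATG7, and ATG7 1, at 187.3 CPM, lay inside the EYFP range.

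Close copies can share reads, and the handling of reads with several hits is not given in the sources used here. Of the 50-base stretches in Ms4a4c transcripts, 7.73% also occur in Ms4a4b, and of those in Ms4a4b 1.53% occur in Ms4a4c. For stretches of 100 bases the shares were 1.66% and 0.327%. Ms4a6c shares 5.85% of its 50-base stretches with Ms4a6b, and 51.4% with any other gene on either strand, most of it with BE692007. The paralogues summed gave 7.73 ± 2.64 (SD, n = 4) and 21.7 ± 7.43 (SD, n = 3) CPM for Ms4a4b with Ms4a4c, and 154.9 ± 12.5 (SD, n = 4) and 166.5 ± 11.1 (SD, n = 3) CPM for the 3 Ms4a6 genes. The first sum did not overlap between the groups and the second did.

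The rest of the family was mostly silent in these libraries. Of 15 other Ms4a genes, 7 had 0 counts in all libraries, 6 stayed at or under 0.414 CPM in every library, and 2 had a mean of at least 1 CPM. The silent or nearly silent genes include Ms4a1, with 52 counts over the 7 libraries, and Ms4a2, with 4. Ms4a4a, whose human counterpart binds the fungal receptor Dectin-1 in macrophages, was at 12.2, 14.4, 15.2 and 10.7 CPM in EYFP 1 to 4 and at 11.0, 10.1 and 9.44 CPM in ATG7 1 to 3. Its estimate was -0.37 ± 0.133 (SE) on the log2 scale (edgeR adjusted p = 0.287), opposite in sign to that of Ms4a4c, and the groups overlapped. Ms4a14 was at 2.82 to 5.35 CPM in EYFP and 4.26 to 5.62 CPM in ATG7 (edgeR adjusted p = 0.788). The related Tmem176a and Tmem176b had log2 fold changes of -0.08 and -0.02 (edgeR adjusted p = 0.807 and 0.963). Of the 4 other family genes tested, 0 passed in either direction in edgeR or DESeq2, and Ms4a4a alone had an unadjusted p under 0.05.

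Genes beside the cluster gave no call either. The 3 nearest tested genes on each side were Tmem109, Prpf19 and Ccdc86, and Gif, Mrpl16 and Stx3, with log2 fold changes from -0.67 for Gif, a gene of 74 counts in all, to 0.28 for Ccdc86 (edgeR adjusted p from 0.291 to 0.959). Inside the cluster 7 genes whose symbols do not begin with Ms4a were tested and 0 passed. Whether any of them belongs to the family was not examined. The one with the smallest p, picked out after its values were seen, was the long noncoding RNA AW112010. It was at 7.38, 8.98, 5.92 and 6.09 CPM in EYFP 1 to 4 and at 10.7, 11.5 and 16.6 CPM in ATG7 1 to 3, or 0.86 ± 0.185 (SE) on the log2 scale (edgeR adjusted p = 0.0688). Its groups did not overlap, and the other genes with that pattern in the same direction were the low Gm6501 and Gm8369.

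**Figure D3:**
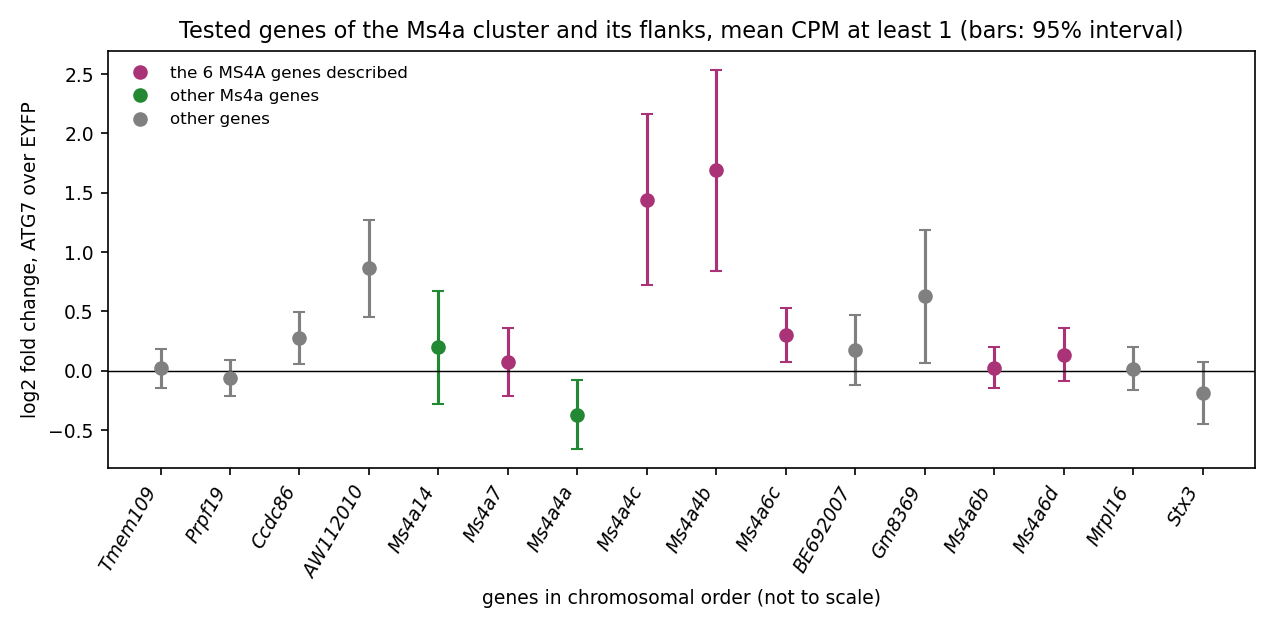
Log2 fold change of ATG7 over EYFP with its 95% interval for tested genes of the Ms4a cluster and its flanks with a mean of at least 1 CPM, in chromosomal order. Ms4a4c and Ms4a4b stand at 1.44 and 1.69, while Ms4a4a on one side is at -0.37 and Ms4a6c on the other at 0.30.

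Markers of T and NK cells were examined beside Ms4a4b. Of 21 such genes, 20 had a log2 fold change above 0 and in 11 the ATG7 libraries all lay above the EYFP libraries. The median log2 fold change was 1.53, and 1 gene, the T cell kinase Lck, passed (from 0.663 to 0.983 CPM in EYFP to 1.90 to 3.10 CPM in ATG7, log2 fold change 1.61, edgeR adjusted p = 0.0192). The summed level was 18.9 to 31.0 CPM in EYFP and 33.2 to 64.5 CPM in ATG7. None of the 21 was at 0 throughout, but levels were low: the T cell receptor component Cd3e was at 0.177 to 0.540 CPM in EYFP and 0.625 to 1.66 CPM in ATG7 (log2 fold change 1.35, edgeR adjusted p = 0.276), and Trac at 0.377 to 0.546 and 0.764 to 2.58 CPM (edgeR adjusted p = 0.0961). The cytotoxic granule gene Nkg7 was at 0.874, 1.00, 0.266 and 0.859 CPM in EYFP 1 to 4 and at 1.22, 1.62 and 3.66 CPM in ATG7 1 to 3 (log2 fold change 1.53, edgeR adjusted p = 0.2002). The ratio of Ms4a4b to the markers depended on the marker. To Nkg7 it was 1.78 to 2.58 over the 7 libraries, and to the summed Cd3d, Cd3e and Cd3g it was 0.985 to 2.21. As a percentage of the whole list's sum, Ms4a4b was at 3.64% to 6.97% in EYFP and 8.21% to 11.3% in ATG7, and these ranges did not overlap. That sum weights each gene by its level, and Cd3d, Cd3e and Cd3g together held only 0.310 to 5.51 CPM of it. Fold changes on the list differed, without EYFP 3 from -0.20 for Klrd1 to 1.99 for Cd3d. The percentage therefore does not set Ms4a4b against a typical marker, as the list's median of 1.53 lay near its 1.69. By DESeq2 9 of the 21 passed. Without EYFP 3 the list's median was 1.20, and Lck alone passed as before (edgeR adjusted p = 0.0373). The part of T and NK cells in the values of Ms4a4b was not tested.

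Interferon response genes were examined beside Ms4a4c. All 28 genes of that list had ATG7 libraries above EYFP libraries and 11 passed, with a median log2 fold change of 1.41. Without EYFP 3, 26 of the 28 passed and the median was 1.20, and by DESeq2 on all libraries 27 passed. Their summed level was 982.2, 802.2, 544.5 and 740.8 CPM in EYFP 1 to 4 and 1419, 1894 and 1828 CPM in ATG7 1 to 3. EYFP 3 was lowest and ATG7 1 the lowest of its group, as for Ms4a4c. The highest libraries differed: EYFP 1 and ATG7 2 for the sum, EYFP 2 and ATG7 3 for Ms4a4c. Stat2, a transcription factor of interferon signalling, rose by 0.93 on the log2 scale, and the antiviral membrane protein gene Bst2 by 0.86 (edgeR adjusted p = 0.0137 and 0.0105). Ms4a4c amounted to 0.599% to 0.995% of the list's sum in EYFP and 0.787% to 1.17% in ATG7, and these ranges overlapped. The part of the interferon response in the values of Ms4a4c was not tested.

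**Figure D4:**
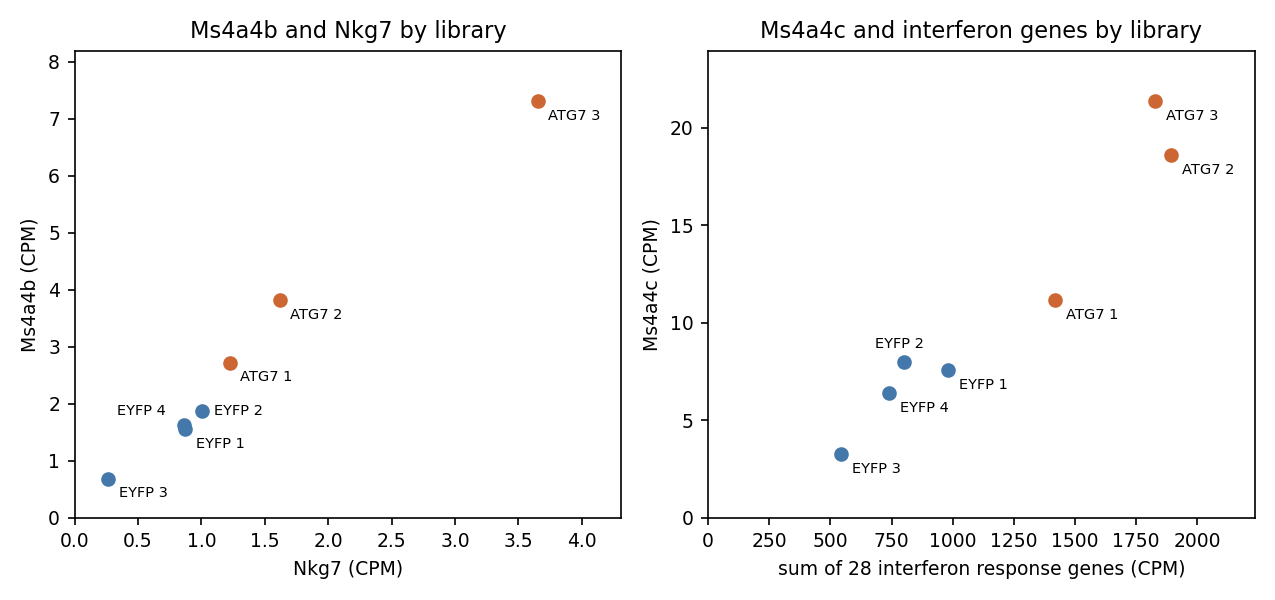
CPM by library for Ms4a4b against Nkg7 (left) and for Ms4a4c against the sum of 28 interferon response genes (right), with axes from 0 and 1 point for each library. EYFP 3 is lowest and ATG7 3 highest for both MS4A genes. The ratio of Ms4a4b to Nkg7, 1 of 21 T and NK cell genes, runs from 1.78 to 2.58. Its percentage of the summed list, in which each gene weighs by its level, runs from 3.64% to 11.3%.

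Other myeloid markers are given beside the members they could share cells with. Of 15 markers of border-associated macrophages, 0 passed in edgeR in either direction (3 at an unadjusted p under 0.05, 2 by DESeq2), the median log2 fold change was -0.08 and the summed level was 1531 to 1866 CPM in EYFP and 1579 to 1689 CPM in ATG7. Of these, Mrc1 (log2 fold change 0.03), Cd163 (-0.17) and Lyve1 (0.04) overlapped between the groups, as Ms4a7 did, and the one with the smallest p was Siglec1, also an interferon-inducible gene (log2 fold change 0.63, edgeR adjusted p = 0.0836). Of 15 monocyte and dendritic cell markers, 0 passed in edgeR (2 at an unadjusted p under 0.05, 1 by DESeq2), with a summed level of 214.6 to 279.3 CPM in EYFP and 241.4 to 378.0 CPM in ATG7. The monocyte gene Ly6c2 was at 1.55 to 4.40 CPM in EYFP and 3.02 to 13.5 CPM in ATG7 (log2 fold change 1.47, edgeR adjusted p = 0.330), and Plac8 at 1.80 to 4.25 and 4.70 to 11.4 CPM (edgeR adjusted p = 0.128). Ccr2, the chemokine receptor of monocytes, was at 17.4 to 23.4 and 17.7 to 23.7 CPM. The part of monocytes in the values of Ms4a4c was not tested. The B cell gene Cd79a, at 0.237 to 0.495 CPM over all libraries, and the mast cell gene Cpa3, at 17 counts in all, were near the floor of 3 counts, which is 0.0543 to 0.0835 CPM depending on the library.

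A further list of 10 genes was drawn up as possible partners of MS4A proteins. It held Fc receptors, Trem2 and Tyrobp, Clec7a, Syk and the sheddases Adam10 and Adam17. Whether they work with MS4A proteins was not tested. All 10 had a log2 fold change above 0, with a median of 0.21, and 1 passed in edgeR (5 at an unadjusted p under 0.05, 3 by DESeq2). This was Clec7a, which encodes Dectin-1 and rose from 35.8 to 64.7 CPM (log2 fold change 0.85, edgeR adjusted p = 0.0105). Trem2 was at 664.5 to 762.7 CPM in EYFP and 650.1 to 809.4 CPM in ATG7 (log2 fold change 0.09, edgeR adjusted p = 0.793), and its partner Tyrobp had a log2 fold change of 0.20 (edgeR adjusted p = 0.450). In the list of disease-associated microglia genes, which are raised around amyloid, 4 of 20 passed in edgeR, all higher (10 at an unadjusted p under 0.05, 7 by DESeq2, and 5 in edgeR without EYFP 3), Clec7a among them again, with Itgax and Csf1 (log2 fold change 1.22 and 0.61, edgeR adjusted p = 0.00705 for both). In the homeostatic list 0 of 16 passed in edgeR or DESeq2, and 0 had an unadjusted p under 0.05.

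The genes whose pattern over the 7 libraries was most like each member's were listed by Pearson's r of log2 CPM among 15049 genes with a mean of at least 1 CPM. These values describe the same 7 libraries, chosen as the highest of many, and carry no test. For Ms4a4b they were the interferon-inducible GTPase gene Ifi47 (r = 0.994, and 0.982 within groups), the lymphocyte chemokine receptor gene Cxcr6 (0.988 and 0.982) and Dck (0.988 and 0.964). For Ms4a4c they were Tnfsf13b, which encodes the B cell survival factor BAFF (0.998 and 0.994), the interferon-inducible Ifi208 (0.995 and 0.992) and the NF-kB subunit gene Relb (0.994 and 0.982). None of these 6 passed (edgeR adjusted p from 0.0761 to 0.179). The highest for the others were S1pr3 for Ms4a6b (0.977), Clptm1l for Ms4a6c (0.986), Mrpl3 for Ms4a6d (0.989) and 2310022B05Rik for Ms4a7 (0.974).

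Among the members themselves, the pair with the highest r over the 7 libraries was Ms4a4b with Ms4a4c (0.977, and 0.929 within groups). Within groups Ms4a7 came near them (0.881 and 0.894), and EYFP 3 was the lowest library for all 3 genes. Over all libraries its r was lower (0.677 and 0.664). Within groups the highest r was that of Ms4a6b with Ms4a6c (0.943, and 0.728 over the 7 libraries). For Ms4a6d with Ms4a4c the within-group r was -0.413. Each r describes the same 7 libraries, which differ in total counts and in group.

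**Figure D5:**
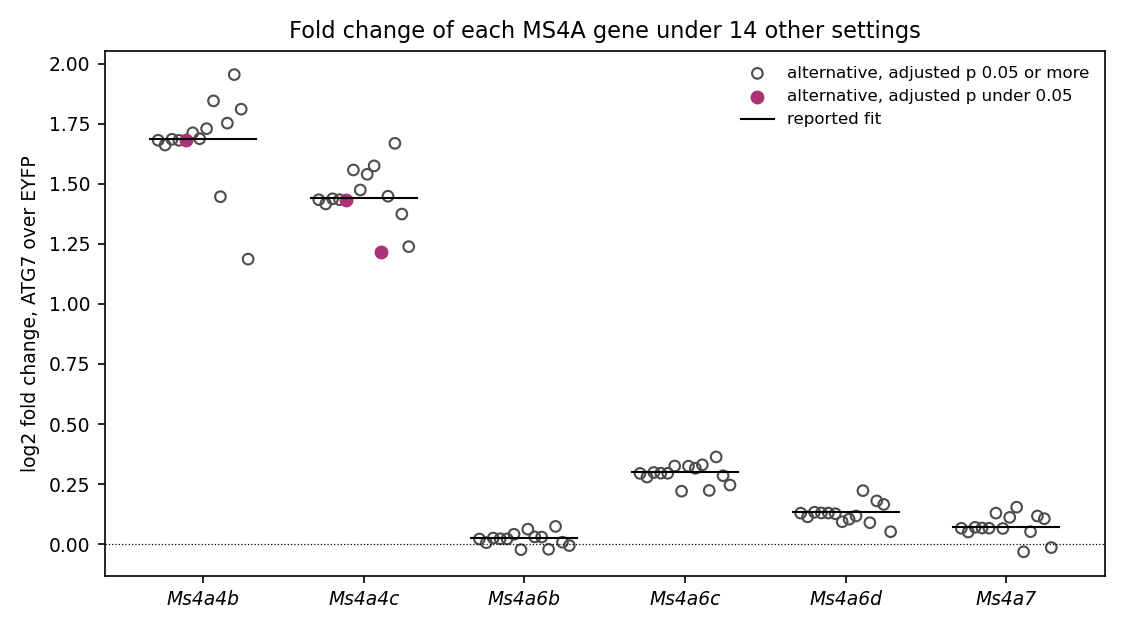
Log2 fold change of each MS4A gene in the reported fit (line) and under 14 other settings (circles), filled where the adjusted p was under 0.05. Ms4a4b stayed between 1.19 and 1.95 and Ms4a4c between 1.22 and 1.67, with 1 and 2 filled circles, while Ms4a6b and Ms4a7 fell on both sides of 0.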

How the data were processed

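The authors deposited a single file of raw read counts, unnormalized, for 55401 Ensembl identifiers in 7 libraries. Per the submitters' processing notes, fastp 0.20.1, HISAT2 2.0.5 and featureCounts were used on mm10 (GRCm38). The annotation, strand setting and handling of shared reads are not given in the sources used here. Mitochondrial genes are listed at 0. Symbols, positions and exon lengths came from GENCODE M21, and upstream sequences from RefSeq (GRCm38.p6). ATG7 was compared with EYFP by edgeR 4.0.16 (R 4.3.3), a quasi-likelihood test with TMM factors, filterByExpr and robust dispersion, with Benjamini-Hochberg adjustment over all 19199 genes and a two-sided threshold of 0.05. SE was derived from the estimate and its F statistic. Log2 CPM used a prior count of 2. The test was checked on simulated data first. DESeq2 1.42.0 and limma 3.58.1 were alternatives.

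The text names the 6 members, family genes with a mean of at least 1 CPM, flanking genes, defining markers, the 3 most alike genes, and up to 3 passing genes of each list or the one with the smallest p. One gene that this rule names is not reported here. The members and lists were chosen with earlier results of these data known. Trem2, Tyrobp, P2ry12 and Tmem119 were added after seeing values. Replicate pairs of a group differed by 19.2 to 41.3 chi-square per degree of freedom, so each library counted once. Floors cover counting error only.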

Additional observations from a re-analysis of the deposited data

Results flagged for a closer look

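In the 4 EYFP libraries, 55 genes were examined for a library whose gap to the nearest other exceeded Dixon's 95% critical share of the range. There were 5 such values, where chance gives about 1 in 20, or 2.75. Ms4a6c was at 17.8 CPM in EYFP 4, against 22.2 to 22.8 in the other EYFP libraries. Csf1 was at 47.6 CPM in EYFP 1, against 40.6 to 41.5. The other 3 were all in EYFP 3: Xist at 938.5 CPM against 0.327 to 0.574, Ddx3y at 27.6 CPM against 153.0 to 168.7, and Kdm5d at 8.09 CPM against 42.3 to 48.4. For Ms4a4b, Ms4a4c and Ms4a7, EYFP 3 was the lowest EYFP library without reaching the critical value.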

How the results depend on the processing

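The number of genes that differed was 145 (132 higher, 13 lower). It was 297 with no filter on low counts (234 higher, 63 lower), 572 with DESeq2 (404 higher, 168 lower), 275 at an adjusted p under 0.1, and between 28 and 277 with 1 library left out (277 without EYFP 1, 94 without EYFP 2, 30 without EYFP 4, 28 without ATG7 2 and 30 without ATG7 3). Fitting a replicate block in edgeR gave 0 genes (1256 at an unadjusted p under 0.05), with 1.69 for Ms4a4b and 1.47 for Ms4a4c. Same-numbered libraries did not deviate together (correlations of -0.0609, -0.182 and 0.0664), so the numbers were not taken as pairs. Over 84 fits of the 6 members, 76 kept direction and call, 3 gained a call and 5 reversed. Gained calls were those of Ms4a4b (1.68) and Ms4a4c (1.43) with DESeq2 and of Ms4a4c without EYFP 3. With 1 library left out, Ms4a4b ranged from 1.19 to 1.95, Ms4a4c from 1.22 to 1.67, Ms4a6b from -0.0214 to 0.0740 and Ms4a7 from -0.0318 to 0.154. With the replicate block Ms4a6b reversed to -0.0228. Over all settings the adjusted p lay between 0.000543 and 0.539 for Ms4a4b and between 0.0143 and 0.381 for Ms4a4c. Where only the test or the samples changed, the cause was not tested. The counts without EYFP 3 of members without overlap and of listed genes were added after seeing the data. Over all genes tested the median stayed between -0.0243 and 0.0031. Ms4a4b had the fewest counts of the 6 members, 31 to 340 per library.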

Other observations

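Among markers listed for B and mast cells, 5 of 11 had enough counts to be tested and 1 passed. This was Cd22, a sialic acid receptor known from B cells and also from microglia, which rose from 11.6 to 23.2 CPM (log2 fold change 1.00, edgeR adjusted p = 0.00705). Cd79a, the defining B cell marker of that list, was at a mean of 0.359 CPM in EYFP and 0.360 CPM in ATG7. Of 10 choroid plexus genes, 0 passed in edgeR (4 at an unadjusted p under 0.05, 1 by DESeq2) and all had a log2 fold change below 0, with a median of -0.27 and a summed level of 55549 to 73270 CPM in EYFP and 47092 to 61954 CPM in ATG7. Of 10 neutrophil genes, 0 passed in edgeR or DESeq2 (1 at an unadjusted p under 0.05), and the one with the smallest p was Csf3r (log2 fold change 0.36, edgeR adjusted p = 0.264).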
